A study of Homo sapiens with 6 samples.

Results

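Annexins and S100 proteins are calcium-binding protein families that act at membranes, and their genes were followed in HT29, a human cell line established from a colorectal adenocarcinoma. Members were taken by gene symbol alone (ANXA or S100 followed by the member's letter and number), which gave 31 of the 26255 genes listed in each library, 12 of them annexins and 19 of them S100 genes. Cells were exposed for 24 h to YM155, known as a small-molecule inhibitor of survivin expression, or to its solvent DMSO, and 3 libraries were made from each group. The titles of the treated libraries spell the compound with another digit than their treatment label, which was followed here. Whether the 3 libraries of a group came from separate cultures is not stated, so p-values measure only the spread between these libraries, which may be technical. HT29 is 1 cell line, and no other line or dose was part of the comparison. In such bulk samples fewer cells that express a gene and less RNA per cell cannot be told apart.

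An annexin binds the acidic lipids on the inner face of a membrane when calcium rises, through a conserved core of repeats, and annexins take part in vesicle traffic, membrane repair and the anchoring of the membrane to actin. S100 proteins are small dimers with EF-hand calcium sites. On binding calcium they open a surface that grips partner proteins, and several annexins are among those partners, as in the complex of ANXA2 with S100A10. In gut epithelium both families are abundant, and most S100A genes lie together in the epidermal differentiation complex on chromosome 1.

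Values were FPKM (fragments per kilobase of transcript, corrected for library size), so levels of different genes can be compared per length. The FPKM worth of 1 read was estimated from the most frequent ratio of low values to those of DMSO replicate 1. It was 1.78, 1.52 and 1.75 times that of DMSO replicate 1 in YM155 replicates 1 to 3. In DMSO replicates 2 and 3 it was 0.997 and 1.11 times that of DMSO replicate 1. By this estimate scarce transcripts had fewer reads behind them in the treated libraries. A gene was tested where at least 3 of the 6 libraries reached 1 FPKM, and it is called changed at an adjusted p under 0.05 by limma over 12035 tested genes. Survivin's own gene BIRC5, the named target, was at 7.13, 6.07 and 5.89 FPKM with YM155 and 21.6, 20.98 and 22.8 FPKM with DMSO. Of 10 colorectal epithelial markers 9 reached 1 FPKM, and CDX1 did not. Their summed level was 8706 to 9463 FPKM with YM155 and 5452 to 5731 FPKM with DMSO. Of 10 myeloid markers only LYZ, which secretory gut epithelium also makes, and CD14 reached 1 FPKM, while CSF3R, FCGR3B, ELANE and TYROBP were at 0 in every library. Their summed level was 1921 to 2057 FPKM with YM155 and 1810.1 to 2075 FPKM with DMSO. Of 6 T and B cell markers CD79A alone reached 1 FPKM (summed level 4.41 to 5.69 FPKM with YM155 and 0.438 to 0.526 FPKM with DMSO), with CD2 and MS4A1 at 0, and none of 6 fibroblast or 4 endothelial markers did. The summed level of the fibroblast markers was 0.103 to 0.135 FPKM with YM155 and 0.269 to 0.358 FPKM with DMSO, with DCN at 0, and that of the endothelial markers was 0.138 to 0.25 FPKM with YM155 and 0.0495 to 0.144 FPKM with DMSO. Their part in the results was not tested.

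Of the 31 genes, 22 passed the filter on low values, 15 rose with YM155, 5 fell and 2 did not pass the test. Among all tested genes 43.6% rose and 41.0% fell (84.7% in either direction), and 51.5% of calls were rises, against 36.4% with upper-quartile scaling and 37.4% with common-sum scaling, where 7 annexins and 8 S100 genes were again called higher. The median log2 fold change was 0.92 for the 22 members and 0.02 for all tested genes. The members ranged from -3.29 (ANXA13) to 3.22 (ANXA1), on the log2(FPKM + 1) scale. The groups did not overlap for 20 of the 22 members, against 85.9% of all tested genes. The share of rises was larger among genes with a high mean over all 6 libraries. That mean includes the YM155 libraries, so genes that rose enter the group more easily than genes that fell. Its shares are therefore partly set by the selection. ANXA1, ANXA3 and ANXA11, at 79.3, 28.9 and 70.8 FPKM with DMSO, enter through YM155. ANXA13 and ANXA4, which fell and were at 134 and 121 FPKM with DMSO, are left out. Of the 763 genes with a mean of at least 100 FPKM over the 6 libraries, 57.8% rose and 23.6% fell (median log2 fold change 0.24), and of the 12 members among them 10 rose and 1 fell.

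Promoter sequences are shown for 4 of the members that rose, because the members were compared for short motifs near their starts. All 4 hold a motif match, and members without any, such as S100A6, ANXA3 and ANXA4, are not shown. The 4 are the promoters of the most increased gene of each family (ANXA1 and S100P), the most abundant annexin (ANXA2) and S100A2. Each runs from 250 bases before to 50 bases after the start in RefSeq (assembly GRCh38.p14), 5′ to 3′ on the gene's strand. Capitals mark matches to the AP-1 motif TGANTCA, the C/EBP-ATF motif TGATGNAA, the antioxidant response element core TGACNNNGC or the TATA box TATAAA on either strand.
ANXA1 promoter, chr9:73151615-73151914, + strand: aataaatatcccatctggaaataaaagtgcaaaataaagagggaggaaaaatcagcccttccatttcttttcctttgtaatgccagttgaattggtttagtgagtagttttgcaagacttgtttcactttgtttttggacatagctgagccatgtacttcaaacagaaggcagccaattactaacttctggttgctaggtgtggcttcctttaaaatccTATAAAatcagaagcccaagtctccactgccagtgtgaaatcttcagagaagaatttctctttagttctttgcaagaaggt
ANXA2 promoter, chr15:60397937-60398236, - strand: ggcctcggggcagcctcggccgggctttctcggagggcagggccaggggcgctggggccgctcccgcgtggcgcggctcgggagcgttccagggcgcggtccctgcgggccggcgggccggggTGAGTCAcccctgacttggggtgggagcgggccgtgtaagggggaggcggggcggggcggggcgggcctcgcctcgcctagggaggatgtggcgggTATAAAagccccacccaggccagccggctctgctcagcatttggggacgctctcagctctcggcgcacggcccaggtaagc
S100P promoter, chr4:6693628-6693927, + strand: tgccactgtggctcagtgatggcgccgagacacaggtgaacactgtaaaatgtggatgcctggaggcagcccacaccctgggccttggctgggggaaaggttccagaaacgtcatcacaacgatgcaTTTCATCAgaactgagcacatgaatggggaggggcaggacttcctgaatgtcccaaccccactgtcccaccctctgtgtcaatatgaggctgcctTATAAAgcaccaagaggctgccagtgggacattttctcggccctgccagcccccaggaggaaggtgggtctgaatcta
S100A2 promoter, chr1:153565795-153566094, - strand: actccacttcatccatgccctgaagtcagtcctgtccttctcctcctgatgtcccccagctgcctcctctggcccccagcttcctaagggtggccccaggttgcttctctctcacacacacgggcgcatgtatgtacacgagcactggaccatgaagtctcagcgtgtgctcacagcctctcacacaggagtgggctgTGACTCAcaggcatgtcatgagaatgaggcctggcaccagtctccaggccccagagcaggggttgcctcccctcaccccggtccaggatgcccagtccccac
The AP-1 motif lay 127 bases before the start of ANXA2, 52 before that of S100A2 and 225 before that of S100A3. Of the 21 tested members with a promoter sequence 15 rose, and ANXA13, which fell, had no such sequence. The AP-1 motif was in 3 of the 21, all of which rose, and in 4.66% of the 8973 tested genes with a promoter. TATA boxes were found in 6 members (5 that rose and S100A4, which fell) and in 5.42% of those genes, 31 bases before the start in ANXA1, ANXA2 and S100A4 and 28 before it in S100P. The antioxidant response element core was in S100A16, S100A14 and ANXA7, which rose, in S100A13, which did not pass, and in 15.4% of the tested genes. A C/EBP-ATF motif was present in S100P, 123 bases before its start, and in 1.58% of tested genes. Because its centre base is free, the AP-1 pattern matches both strands at the same place. An antioxidant core can share its first bases with an AP-1 motif. These matches describe letters in the window and not bound sites.

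Among the 12 annexins, 10 were tested, of which 7 rose and 3 fell, beside a background of 43.6% and 41.0%. The median log2 fold change of the 10 was 1.05. All 10 had groups that did not overlap, as did 85.9% of all tested genes. Summed over the 12 genes, annexin transcripts reached 4514 ± 105 FPKM with YM155 and 1700.3 ± 51.5 FPKM with DMSO (SD, n = 3), or 0.660 ± 0.0246% of all FPKM with YM155 and 0.311 ± 0.00363% with DMSO.

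The most abundant annexin was ANXA2, which links membranes to each other and to actin in its complex with S100A10 and which helps to assemble plasminogen at the cell surface. Its level was 2017, 2062 and 2093 FPKM with YM155 and 830.3, 882 and 794 FPKM with DMSO. Every treated library was above every DMSO library, a 2.46-fold higher mean (log2 fold change 1.30, SE 0.05, adjusted p = 2.4e-08 by limma). Reads of ANXA2 can be shared with its processed pseudogenes, whose rows ANXA2P1, ANXA2P2 and ANXA2P3 reached at most 0.337, 0.694 and 0 FPKM.

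ANXA1, a protein induced by glucocorticoids that restrains inflammation through formyl peptide receptors, had the largest rise among the members. It was at 695, 792 and 754 FPKM with YM155 and at 77.7, 81.8 and 78.3 FPKM with DMSO. The means were 747 ± 48.9 FPKM with YM155 and 79.3 ± 2.21 FPKM with DMSO (SD, n = 3), a 9.43-fold difference (log2 fold change 3.22, SE 0.05, adjusted p = 2.5e-10 by limma). This moved ANXA1 to rank 133 among all genes by mean FPKM with YM155, against rank 842 with DMSO.

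Next in size of rise was ANXA3, an annexin known from neutrophils and from several carcinomas. Its levels were 172, 194 and 179 FPKM with YM155 and 30.1, 29.7 and 27.02 FPKM with DMSO, without overlap. Its mean rose 6.27-fold (log2 fold change 2.61, SE 0.06, adjusted p = 1.3e-09 by limma). ANXA5 binds phosphatidylserine and is widely used as a probe of dying cells. Its transcript was at 983, 1009 and 1015 FPKM with YM155 and at 240.3, 249 and 245 FPKM with DMSO, so that libraries within a group differed little. Its mean rose 4.09-fold with YM155 (log2 fold change 2.03, SE 0.04, adjusted p = 4.6e-10 by limma).

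Smaller rises were seen for ANXA11, ANXA7 and ANXA10. ANXA11, which binds S100A6 and tethers RNA granules to lysosomes, was at 168, 172 and 158 FPKM with YM155 and at 66.6, 71.05 and 74.6 FPKM with DMSO, a log2 fold change of 1.22 (SE 0.05, adjusted p = 5.7e-08 by limma). ANXA7, also called synexin for its role in the fusion of secretory granules, was at 75.6, 74.2 and 76.3 FPKM with YM155 and at 41.4, 40.1 and 39.5 FPKM with DMSO, a log2 fold change of 0.89 (SE 0.04, adjusted p = 7.4e-08 by limma). Neither gene had a treated library within the range of the DMSO libraries. ANXA10 is a divergent annexin of gastric epithelium that also marks serrated colorectal lesions. It was at 195, 203 and 197 FPKM with YM155 and at 140.2, 136 and 136 FPKM with DMSO, a 1.45-fold higher mean (log2 fold change 0.53, SE 0.04, adjusted p = 1.3e-06 by limma). With quantile normalization its log2 fold change was 0.056 and it no longer passed (adjusted p = 0.21 by limma), which is 0.14 relative to the median of all genes in that scaling.

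The 3 annexins that fell included ANXA13, a myristoylated annexin largely restricted to the intestine. It was at 14.1, 10.8 and 13.7 FPKM with YM155 and at 133, 136 and 132 FPKM with DMSO. The mean was 10.4-fold lower with YM155 (log2 fold change -3.29, SE 0.09, adjusted p = 2.8e-09 by limma), and its rank among all genes was 5541 with YM155 and 445 with DMSO. ANXA4, an annexin of secretory epithelia, was at 70.4, 68.3 and 70.5 FPKM with YM155 and at 125, 121 and 116 FPKM with DMSO. That is a 1.73-fold lower mean (log2 fold change -0.78, SE 0.04, adjusted p = 2.1e-07 by limma). ANXA9, in which the calcium sites of the core are not conserved, was at 2.54, 1.89 and 2.61 FPKM with YM155 and at 9.67, 8.69 and 8.79 FPKM with DMSO (log2 fold change -1.59, SE 0.10, adjusted p = 4.0e-07 by limma). Both genes had groups that did not overlap, with ANXA9 the scarcest annexin tested.

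**Figure D1:**
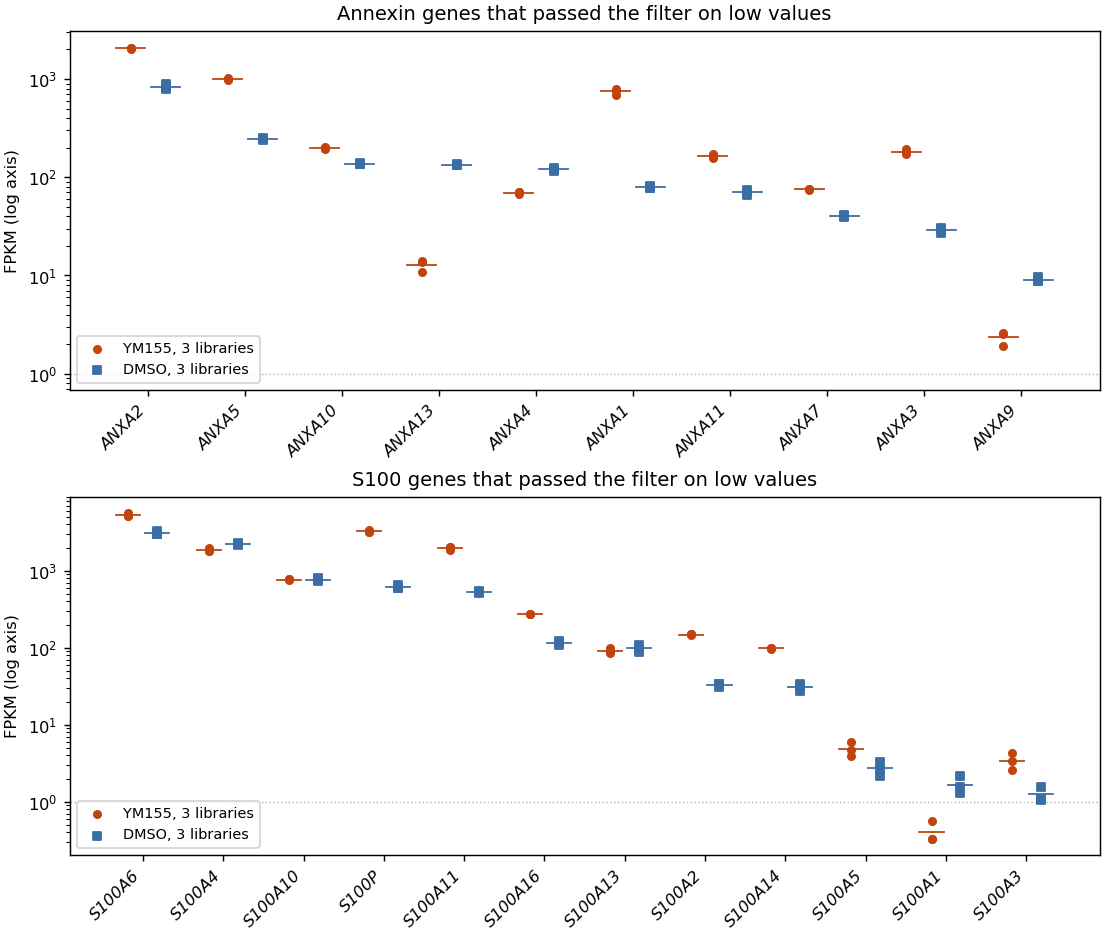
FPKM of each tested annexin (top) and S100 gene (bottom) in every library on a log axis, with YM155 libraries as circles left of DMSO libraries as squares and short lines for the group means; the dotted line is 1 FPKM. Groups are separate for every gene shown except S100A10 and S100A13.

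The other 2 annexins did not pass the filter. ANXA6, the annexin with a doubled core, was at 0.368, 0.377 and 0.240 FPKM with YM155 and at 0.0275, 0.0548 and 0.0153 FPKM with DMSO, levels at which single reads matter. ANXA8 was listed at 0.0390 FPKM in YM155 replicate 1 and at 0 in the other 5 libraries. Its near copy ANXA8L1 was at 0 throughout.

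S100 transcripts were more abundant than annexin transcripts, at 13698 ± 425 FPKM with YM155 and 7512 ± 259.5 FPKM with DMSO summed over the 19 genes (SD, n = 3), or 2.00 ± 0.033% of all FPKM with YM155 and 1.37 ± 0.0135% with DMSO. Of the 12 tested, 8 rose, 2 fell and 2 did not pass, beside 43.6% higher and 41.0% lower of all tested genes. The median log2 fold change was 0.86, against 0.02 for all tested genes. The groups did not overlap for 10 of the 12, near the background of 85.9%.

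S100A6, or calcyclin, which binds ANXA2, ANXA11 and the ubiquitin ligase adaptor CACYBP, was the most abundant member of either family. It was at 5605, 5071 and 5080.1 FPKM with YM155 and at 2998, 3272 and 3014 FPKM with DMSO. By mean level it stood at rank 9 of all genes with YM155 and at rank 29 with DMSO, a 1.70-fold difference (log2 fold change 0.76, SE 0.06, adjusted p = 2.4e-06 by limma).

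The largest rise among the S100 genes was that of S100P, a ligand of the receptor RAGE that also binds the actin linker ezrin. Its levels were 3345, 3206 and 3143 FPKM with YM155 and 596, 661 and 593 FPKM with DMSO, far outside the spread of either group. Its mean rose 5.24-fold (log2 fold change 2.39, SE 0.05, adjusted p = 1.3e-09 by limma), and S100P moved to rank 28 of all genes with YM155, against rank 119 with DMSO. S100A11, a partner of ANXA1 in keratinocytes and at endosomes, was at 1843, 2005 and 2019 FPKM with YM155 and at 512, 532 and 542 FPKM with DMSO. Its mean rose 3.70-fold (log2 fold change 1.89, SE 0.05, adjusted p = 2.8e-09 by limma).

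S100A2, S100A14 and S100A16 are S100 genes of stratified and other epithelia, and S100A2 is known to bind p53. S100A2 was at 148, 149 and 146 FPKM with YM155 and at 33.6, 33.9 and 30.8 FPKM with DMSO, a 4.50-fold higher mean (log2 fold change 2.14, SE 0.05, adjusted p = 1.0e-09 by limma). S100A14 was at 99.6, 95.8 and 97.9 FPKM with YM155 and at 27.6, 33.5 and 30.7 FPKM with DMSO (log2 fold change 1.65, SE 0.07, adjusted p = 3.0e-08 by limma). S100A16 was at 275, 273 and 271 FPKM with YM155 and at 116, 122 and 109 FPKM with DMSO (log2 fold change 1.23, SE 0.05, adjusted p = 2.8e-08 by limma). All 3 genes rose without overlap between the groups.

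S100A3, known from the hair cuticle, and S100A5, known from olfactory neurons, were scarce. S100A3 was at 2.56, 4.27 and 3.35 FPKM with YM155 and at 1.57, 1.09 and 1.07 FPKM with DMSO (log2 fold change 0.96, SE 0.15, adjusted p = 2.2e-04 by limma). S100A5 was at 5.92, 3.96 and 4.67 FPKM with YM155 and at 3.32, 2.66 and 2.17 FPKM with DMSO (log2 fold change 0.65, SE 0.14, adjusted p = 0.0022 by limma). Treated libraries of both were above all DMSO libraries, but the S100A5 groups came close.

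The test was not passed by 2 S100 genes. S100A10, or p11, which has lost calcium binding and holds ANXA2 in its complex, was at 775, 747 and 778 FPKM with YM155 and at 741, 749 and 802 FPKM with DMSO. The treated libraries lay within the DMSO range, and the log2 fold change was 0.0051 (95% interval -0.099 to 0.11, adjusted p = 0.92 by limma). S100A13, which takes part in the release of FGF1, was at 99.4, 87.5 and 86.4 FPKM with YM155 and at 96.9, 107 and 89.02 FPKM with DMSO (log2 fold change -0.099, 95% interval -0.27 to 0.076, adjusted p = 0.25 by limma). Both results depended on scaling. S100A10 had log2 fold changes of -0.34, -0.32 and -0.47 and was called lower with upper-quartile, common-sum and quantile scaling, and against each scaling's own median over all genes these values were -0.061, -0.058 and -0.39. S100A13 was called lower with -0.44, -0.42 and -0.53, or -0.16, -0.16 and -0.45 against that median.

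The 2 S100 genes that fell were S100A4 and S100A1. S100A4, or metastasin, binds the heavy chain of non-muscle myosin and marks motile and mesenchymal cells. It was at 1989, 1828 and 1807 FPKM with YM155 and at 2212, 2295 and 2170.3 FPKM with DMSO, a 1.19-fold lower mean (log2 fold change -0.25, SE 0.05, adjusted p = 0.0016 by limma). The gap between the groups was narrow, but they did not overlap. With upper-quartile, common-sum and quantile scaling the log2 fold change of S100A4 was -0.60, -0.57 and -0.40, or -0.31, -0.31 and -0.32 against the median of all genes under each. S100A1, known from heart and skeletal muscle, was at 0.333, 0.570 and 0.327 FPKM with YM155 and at 2.15, 1.30 and 1.56 FPKM with DMSO (log2 fold change -0.91, SE 0.13, adjusted p = 1.1e-04 by limma). Its treated values were under the 1 FPKM of the filter, so it was tested on the strength of the DMSO libraries, and its log2 fold change was -1.80 with a pseudocount of 0.1.

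**Figure D2:**
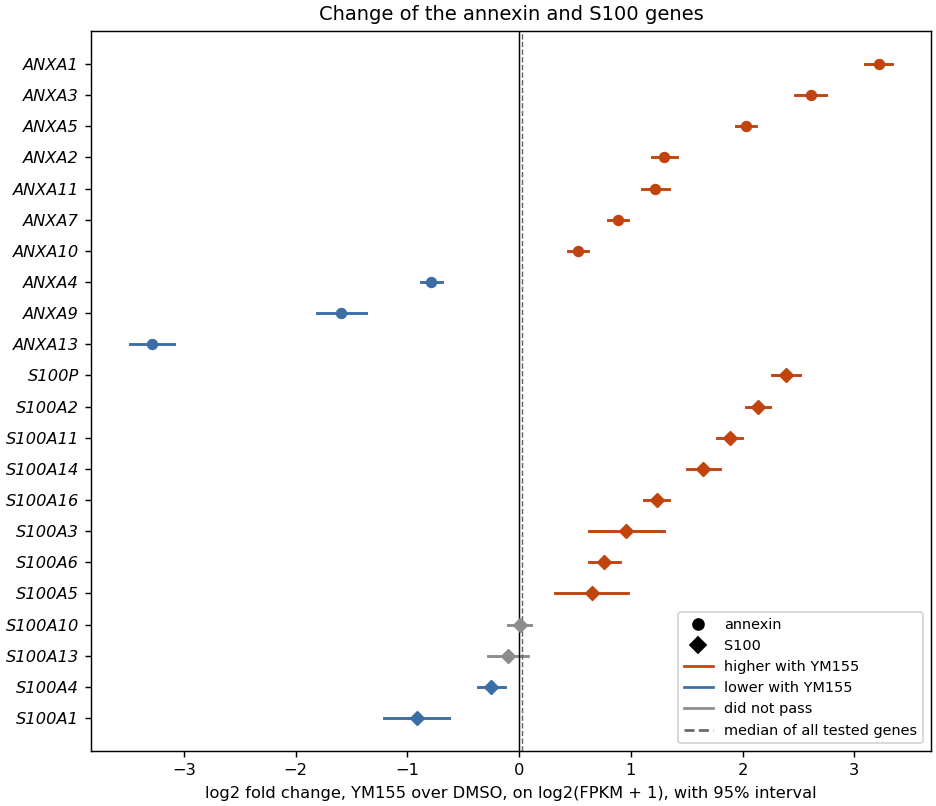
Log2 fold change of YM155 over DMSO on the log2(FPKM + 1) scale for the 22 tested members, with 95% intervals from limma; circles are annexins, diamonds S100 genes, and the dashed line is the median of all tested genes. The members extend from -3.29 for ANXA13 to 3.22 for ANXA1, and the intervals of S100A10 and S100A13 include 0.

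S100A7, S100A8, S100A9 and S100A12, known from myeloid cells and inflamed skin, were at or near 0 in HT29. S100A8 and S100A12 were listed at 0 in all 6 libraries. S100A9, which pairs with S100A8 as calprotectin of neutrophils, and S100A7, or psoriasin, were listed at 0.174 and 0.276 FPKM in YM155 replicate 1 and at 0 in the other 5 libraries. S100B, known from glia and melanocytes, and S100G, the vitamin D-dependent calcium carrier of the small intestine, were also at 0 throughout. S100Z was at 0.0388 FPKM in DMSO replicate 1 and at 0 elsewhere. No fold is given for any of these 7 genes.

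With members changing by unequal amounts, the make-up of each family differed between treatments. Within the annexin sum ANXA2 made up 45.6 ± 0.557% with YM155 and 49.1 ± 1.10% with DMSO (SD, n = 3). ANXA1 made up 16.5 ± 0.724% with YM155 and 4.66 ± 0.077% with DMSO, ahead of ANXA10, ANXA4 and ANXA13 with YM155 and behind them with DMSO. ANXA13 held 0.285 ± 0.0448% with YM155 and 7.86 ± 0.121% with DMSO. Within the S100 sum S100P held 23.6 ± 0.204% with YM155 and 8.21 ± 0.226% with DMSO, and S100A4 held 13.7 ± 0.302% with YM155 and 29.6 ± 0.435% with DMSO. S100A6 remained the largest contributor, at 38.3 ± 1.03% with YM155 and 41.2 ± 0.615% with DMSO. These shares do not depend on scaling by 1 factor per library, which quantile normalization is not. Those of ANXA1, ANXA13, S100P and S100A4 had no overlap between the groups.

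**Figure D3:**
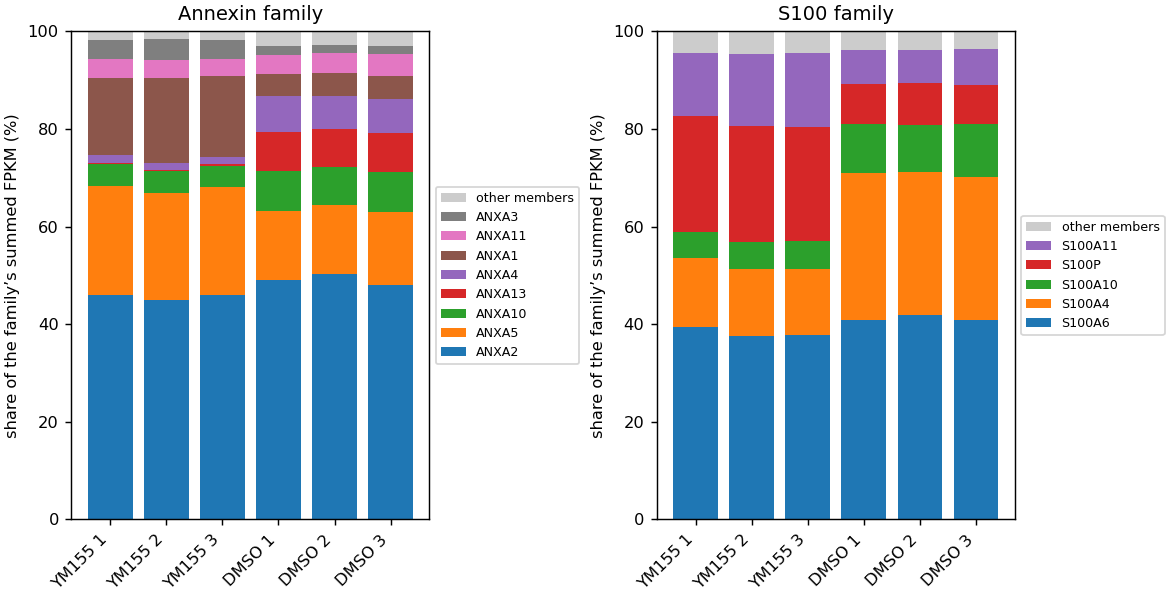
Share of the summed FPKM of the annexin family (left) and the S100 family (right) held by each member in every library, in percent, with members under 4% in both groups pooled as other members. ANXA1 and S100P take a larger share in the YM155 libraries, and ANXA13 and S100A4 a smaller one.

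Genes of known binding partners were not equally changed. The ratio of ANXA2 to S100A10 was 2.60, 2.76 and 2.69 in the YM155 libraries and 1.12, 1.18 and 0.990 in the DMSO libraries, averaging 2.69 ± 0.0786 with YM155 and 1.10 ± 0.096 with DMSO (SD, n = 3). The ratio of ANXA1 to S100A11 averaged 0.382 ± 0.0116 with YM155 and 0.15 ± 0.0049 with DMSO (SD, n = 3). Groups were apart for both ratios, which compare transcript levels per length and not amounts of protein. S100A8 and S100A9 were too low for a ratio.

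**Figure D4:**
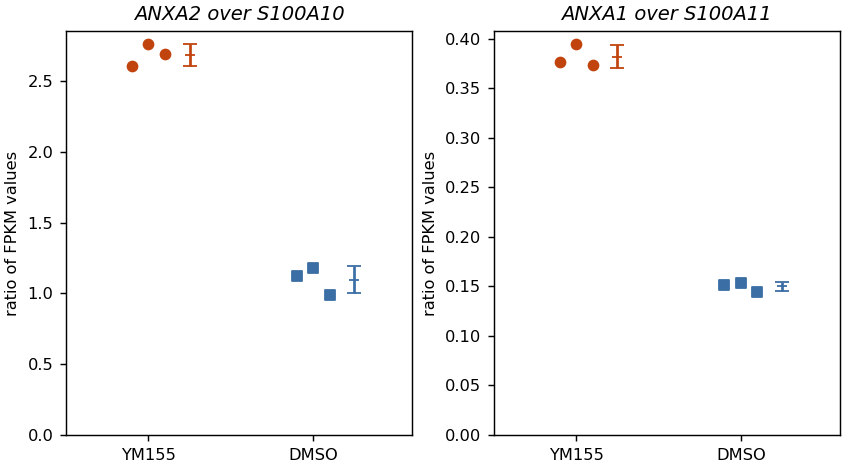
Ratio of FPKM values of ANXA2 over S100A10 (left) and of ANXA1 over S100A11 (right) in each library, YM155 as circles and DMSO as squares, with mean and SD (n = 3) beside the points. The YM155 libraries lie above the DMSO libraries in both panels.

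Along chromosome 1 the 15 S100A genes run from S100A10 and S100A11 through the silent or nearly silent S100A9, S100A12, S100A8 and S100A7 to S100A6, S100A5, S100A4, S100A3, S100A2, S100A16, S100A14, S100A13 and S100A1 (order from RefSeq, GRCh38.p14). Of the 11 tested genes in this row 7 rose, 2 fell and 2 did not pass, beside 43.6% higher and 41.0% lower of all tested genes. Genes with different calls were interleaved. S100A4 fell between S100A5 and S100A3, which rose, and S100A11 rose next to S100A10. In the same annotation the RNA gene LOC101928034 (1.40 FPKM with YM155 and 1.34 FPKM with DMSO) overlaps S100A3 and S100A4, S100A4 overlaps S100A5, and S100A13 overlaps both S100A1 and CHTOP (62.1 FPKM with YM155 and 43.3 FPKM with DMSO). Whether strand was used in quantification is not given in the sources used here. This matters for S100A13 and S100A1, which lie on opposite strands. S100A4 and S100A5 lie on the same strand, so strand could not separate reads of the stretch they share. The levels of these S100 genes, above all the scarce S100A1, S100A3 and S100A5, are therefore uncertain.

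**Figure D5:**
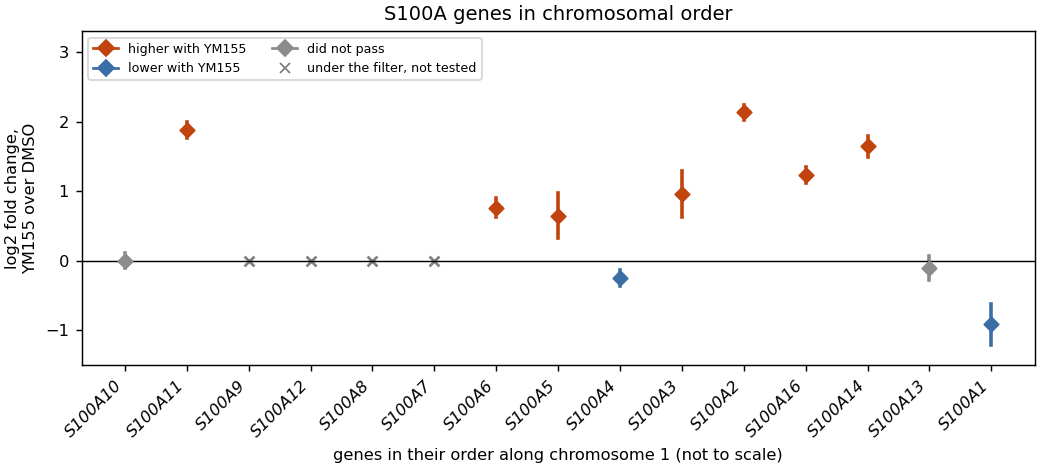
Log2 fold change of YM155 over DMSO, with 95% intervals from limma, for the S100A genes in their order along chromosome 1; crosses mark genes under the filter, which were not tested. S100A4 (-0.25) lies between S100A5 (0.65) and S100A3 (0.96).

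S100 transcripts are short, with a median length of 649.8 bases over the 12 tested genes, against 1677 bases over the 10 tested annexins (GENCODE release 29, basic transcripts). FPKM of short transcripts depends on the fragment length assumed. Of the 709 tested genes with a transcript of at most 800 bases, 27.1% rose and 48.2% fell, with a median log2 fold change of -0.20. The 8 members among them comprised 5 that rose, 2 that fell and S100A13.

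Of 43 genes of annexin and S100 partners, targets and receptors, 25 were tested, of which 13 rose and 10 fell, near the background of 43.6% higher and 41.0% lower that also applies to the EF-hand, C2 and channel genes that follow. With upper-quartile or common-sum scaling 11 partners were called in each direction, and with a mean of at least 5 FPKM required 13 were called higher and 6 lower. The background moved with these settings too, also for the lists that follow. Of 12035 genes, 3767 were higher and 6584 lower with upper-quartile scaling and 3830 and 6422 with common-sum scaling. With quantile normalization 4643 were higher and 5487 lower. Of the 8575 genes with that mean, 4419 were higher and 2922 lower. AHNAK2, a giant scaffold related to the ANXA2 partner AHNAK, was at 34.5 ± 0.667 FPKM with YM155 and 0.913 ± 0.108 FPKM with DMSO (SD, n = 3), a log2 fold change of 4.21 (SE 0.06, adjusted p = 1.9e-10 by limma). AHNAK2 passed the filter through its YM155 libraries, and its ratio of mean FPKM, without the pseudocount of 1, was 37.7. PLAUR, the urokinase receptor, was at 361 ± 30.02 FPKM with YM155 and 26.6 ± 2.48 FPKM with DMSO (log2 fold change 3.71, SE 0.08). AGER, which encodes RAGE, the receptor of S100P and other S100 proteins, fell to 1.11, 0.693 and 1.12 FPKM with YM155, against 3.90, 5.24 and 4.21 FPKM with DMSO (log2 fold change -1.46, SE 0.12, adjusted p = 3.2e-06 by limma). None of these 3 genes, which were named for their low p, had groups that overlapped, as was so for 85.9% of all tested genes. The proton-gated channel gene ASIC1 also fell (log2 fold change -1.39, SE 0.08), and BSG, a receptor of S100A9, did not pass, at 168 ± 6.79 FPKM with YM155 and 161 ± 9.69 FPKM with DMSO (adjusted p = 0.37 by limma). With upper-quartile and common-sum scaling BSG was called lower, as were RCN1, CPNE1 and TRPM4 of the other calcium gene lists.

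Of 36 other EF-hand genes tested, 17 were called higher and 17 lower (median log2 fold change 0.07), and 12 and 20 with upper-quartile scaling, 13 and 19 with common-sum scaling and 11 and 21 with quantile normalization. The calpain subunit gene CAPN2 (5.20-fold) and the actin crosslinker gene ACTN4 (3.92-fold) rose, whereas the centrin gene CETN2 (2.74-fold lower) and TESC (2.97-fold lower) fell, and RCN1, of the secretory pathway, did not pass (94.7 ± 2.19 FPKM with YM155 and 94.4 ± 7.48 FPKM with DMSO). Among 20 tested genes with C2 domains, another calcium-dependent membrane binder, 6 rose and 10 fell (median -0.21). With upper-quartile or common-sum scaling 4 of these genes were called higher and 12 lower, and with a mean of at least 5 FPKM required 5 were called in each direction. The tether gene ESYT2 (2.50-fold) and the exocytosis gene UNC13D (4.45-fold) were higher, SYTL2 (2.13-fold) and RASA4 (2.98-fold) were lower, and the copine gene CPNE1 did not pass (103 ± 3.65 FPKM with YM155 and 101 ± 3.86 FPKM with DMSO).

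Of 21 tested genes of calcium channels, pumps and release, 11 rose and 7 fell (median 0.28). The calls were 9 higher and 10 lower with upper-quartile scaling, 9 in each direction with common-sum scaling and 10 higher and 3 lower with a mean of at least 5 FPKM required. The plasma membrane calcium pump gene ATP2B4 was at 43.4 ± 3.48 FPKM with YM155 and 4.17 ± 0.282 FPKM with DMSO (SD, n = 3; log2 fold change 3.10, SE 0.07). The IP3 receptor genes moved apart, with ITPR3 at 134 ± 2.58 FPKM with YM155 and 26.3 ± 0.767 FPKM with DMSO and ITPR2 at 1.08 ± 0.0557 FPKM with YM155 and 5.55 ± 0.10 FPKM with DMSO. ORAI3, a store-operated channel gene, was 1.97-fold lower, and the channel gene TRPM4 did not pass (11.7 ± 0.608 FPKM with YM155 and 11.2 ± 0.697 FPKM with DMSO). Of 47 genes of these libraries listed as neighbours of the S100A genes in the epidermal differentiation complex, 4 passed the filter. Of these 3 were called higher and 1 lower, beside 43.6% and 41.0% of all tested genes. These calls depend on the filter. Without it 6 of the list were called higher and 3 lower, and of all 19085 genes 5560 higher and 6261 lower. With a mean of at least 5 FPKM required no gene of the list was called. The cornified envelope gene SPRR1B was at 10.3, 9.24 and 8.92 FPKM with YM155 and at 0.264, 0.175 and 0.196 FPKM with DMSO (log2 fold change 3.11, SE 0.08). SPRR1A was at 3.27, 4.32 and 3.11 FPKM with YM155 and at 0, 0.242 and 0.372 FPKM with DMSO. Both SPRR1 genes passed the filter through the YM155 libraries only. THEM4 fell (log2 fold change -0.71, SE 0.09).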

How the data were processed

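RNA of HT29 cells from 3 YM155 and 3 DMSO libraries was compared, with groups and replicate numbers from the labels. Per the labels' protocols, a column kit and a stranded mRNA library kit were used. The authors deposited FPKM values per gene symbol. The submitters' processing notes name Cufflinks 2.2.1, Cuffdiff, SAMtools 1.2, TopHat2 2.1.1 and Bowtie2 2.3.5.1, with build hg19. For settings, annotation, read totals and strand, the sources used here give nothing. FPKM values hold no counts, so no count model was used. The worth of 1 read was taken as the most frequent ratio of low values (under 0.3 FPKM) to DMSO replicate 1.

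Genes at 1 FPKM or more in at least 3 of 6 libraries were compared as log2(FPKM + 1) with limma 3.58.1 in R 4.3.3 (eBayes with trend, two-sided, Benjamini-Hochberg over 12035 genes, threshold 0.05), after a test on simulated data. Folds are ratios of mean FPKM. No 2 libraries held identical values. The members, gene lists and tests were chosen with earlier results of these data known. Named genes are all members and, per context list, the 2 lowest p in each direction and the most abundant gene that did not pass. Alternatives were other pseudocounts, filters, scalings, variance models, a replicate block, leaving out each library and a threshold of 0.01. Order, overlaps and promoters came from RefSeq (GRCh38.p14, 31 members matched by symbol, 28 with a promoter). Their coordinates belong to that assembly and not to the deposited values. Protein sequence features were planned and not analysed here.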

Additional observations from a re-analysis of the deposited data

How the results depend on the processing

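The alternatives left the direction and call of the 22 tested members unchanged for both pseudocounts, no filter, median-of-ratios scaling, both variance models, the replicate block and the threshold of 0.01, and for the 19 members that remained with a mean FPKM of at least 5. That filter left 2922 genes called lower, against 4940, and 1 S100 gene lower, against 2, since fewer genes were tested. With no filter 8 annexins were called higher, against 7, the added gene lying outside the 22. Upper-quartile, common-sum and quantile scaling moved the all-gene median (log2) by -0.31, -0.28 and -0.11 and each called 4 S100 genes lower, S100A10 and S100A13 being added. Summed FPKM of YM155 over DMSO, 2.65 for annexins and 1.82 for S100 genes, was 2.08 and 1.43 with upper-quartile scaling and 2.12 and 1.46 with common-sum scaling. The log2 fold change of S100A10 turned to -0.34, -0.32 and -0.47 with these 3 scalings. Among genes of the context lists that did not pass, it turned to -0.29, -0.27 and -0.42 for BSG, -0.32, -0.30 and -0.41 for CPNE1, -0.34, -0.31 and -0.43 for RCN1 and -0.27, -0.24 and -0.11 for TRPM4. BSG, CPNE1 and RCN1 were called lower under all 3 and TRPM4 under the first pair. Against the median of all genes under each scaling these values are -0.010, -0.0078 and -0.33 for BSG, -0.040, -0.038 and -0.33 for CPNE1, -0.056, -0.053 and -0.34 for RCN1 and 0.018, 0.018 and -0.031 for TRPM4. With upper-quartile and common-sum scaling the log2 fold change itself was 0.18 and 0.21 for ANXA10, 0.54 and 0.57 for ANXA7, 0.41 and 0.44 for S100A6 and 0.38 and 0.40 for S100A5, each still called higher, and with quantile normalization -1.22 for ANXA4, 0.78 for ANXA11, 0.74 for S100A16 and -0.57 for S100A1. The cause was not tested. Leaving out 1 library at a time, the log2 fold change ranged from -0.0168 to 0.0405 for S100A10, from -0.00798 to 0.0525 for CPNE1 and from -0.0431 to 0.0677 for RCN1, and no member gained or lost its call. Deviations from the group means correlated at -0.071, -0.15 and -0.12 between libraries of the same number, the lowest value for each number, so the numbers were not taken as pairs. The replicate block gave 5147 genes higher and 4861 lower, against 5251 and 4940, with the members' calls unchanged. Depth limits the scarce members, S100A1, S100A3, S100A5 and ANXA9, and the genes listed at or near 0.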
